A study of Mus musculus with 12 samples.

Results

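Circular RNAs (circRNAs) that gave at least 1 back-splice junction read in every one of the 12 mouse retina samples of this study are described here. They were selected on their own junction counts, taken from the deposited circRNA table, and 592 of the 12510 listed circRNAs met the rule, which is 4.73% of them. The rule used the counts of all 12 samples and no group label. A circRNA that was absent from any single sample is left out, so large falls in any group are under-represented among the 592, and the shallowest libraries decided membership most often.

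Whole retinas were profiled in 4 groups of 3 samples each. The control group, C3H, is labelled wild type and has 1 sample each from postnatal day 13, 23 and 29. Pde6b rd1 retinas (day 13) lack functional rod phosphodiesterase 6 beta subunit, and Pde6b rd10 retinas (day 23) carry a point mutation in the same subunit. Prph rd2 retinas (day 29) carry a mutation of peripherin-2, a structural protein of photoreceptor outer segments. The study's methods place rd1 and rd2 on the C3H background and rd10 on C57Bl6/J, whereas the sample labels give C57BL6/J for rd2. Genotype, age and, for rd10 and by the labels also for rd2, strain therefore differ together between groups and cannot be told apart. The animals were used irrespective of gender, and the whole tissue was profiled, so fewer cells of a type and less RNA per cell cannot be told apart either.

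A circRNA forms when the spliceosome joins the end of an exon to the start of the same or an earlier exon of the same transcript, a step called back-splicing. The product has no free ends and resists exonucleases, so circRNAs tend to outlive the linear mRNA of their host gene. They are abundant in neural tissues, the retina included, and long introns on both sides of the circle, or pairing between those introns, are known to favour their formation. A sequencing read can be assigned to a circle only when it crosses the back-splice junction, and each junction read is thus 1 piece of evidence for a circle.

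The junctions of the most abundant and the most changed of these circRNAs are shown first, because this joined sequence is what was counted. Each line gives the last 15 bases before the back-splice in lower case and the first 15 bases after it in capitals, read 5′ to 3′ on the host strand from GRCm38.p6, with exons numbered in the matching GENCODE vM21 transcript.
circEpb41l2, exons 2 to 3, chr10:25441573-25443954 (+): agctgtgaccttgagTGTAAGCGGTAACCA
circEpb41l2, exons 2 to 4, chr10:25441573-25460896 (+): catcctgagcagaaaTGTAAGCGGTAACCA
circEpb41l2, exons 2 to 8, chr10:25441573-25473163 (+): ctgcaccatgccaagTGTAAGCGGTAACCA
circEpb41l2, exons 4 to 8, chr10:25460792-25473163 (+): ctgcaccatgccaagAAACGTGCCAAGGGA
circHipk3, exon 2, chr2:104470749-104471847 (-): atctcgctactacagGTATGGCCTCACAAG
circMettl9, exons 2 to 4, chr7:121047838-121057399 (+): cctatgtagaaaacgTGGTATGTGTGCAAC
circPms1, exons 2 to 5, chr1:53256629-53282092 (-): tttgtacataataagCTACTCAGGTGCAAG
circRims2, exons 20 to 22, chr15:39566943-39616510 (+): aactcagccaaaccgGTGCTATGGATATAG
circNcoa2, exons 2 to 4, chr1:13221307-13286025 (-): agatcaaagagcaagATTTTCCTCGCATCT
circSetd3, exons 2 to 6, chr12:108157754-108165172 (-): tataaagtcatccagTCAGAAAATGGGTAA
circVps45, exons 8 to 14, chr3:96019609-96042928 (-): acacaacacaaaaagTGGACATATCAGGCC
circStau2, exons 3 to 6, chr1:16440323-16509408 (-): catgtacaatcagagTTTTGTGGAGCTGTG
circTbc1d8, exons 3 to 5, chr1:39402683-39406870 (-): ccagatcacaaagagGTGCAACATTGGAGG
circRpgrip1, exons 16 to 20, chr14:52147210-52150493 (+): cacatcctagaaatgTCCAGATCCGAAACC
circNlgn1, exon 3, chr3:26133242-26134052 (-): tcccaactgaagatgGATATAGACCCACTG
The first 3 Epb41l2 circles share the capital letters, because they all start at exon 2, and the exon 2 to 8 and 4 to 8 circles share the lower-case letters, because both end at exon 8. Circles of 1 gene that share an end in this way are separate rows of the table and differ only in their junction.

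In total, the 12 libraries held between 9819 and 25009 junction reads each, with the fewest in Pde6b rd1 replicate 2 and the most in Pde6b rd10 replicate 1. Total gene reads ranged from 17049495 to 24755890. Of the 302 circRNAs that were missing from exactly 1 sample, 73 were missing only from Pde6b rd1 replicate 2 and 56 only from Pde6b rd1 replicate 3. Pde6b had 4937 to 6253 reads in rd1 against 24335 to 29129 in C3H, and Prph2 had 30656 to 34634 reads in rd2 against 52768 to 65756 in C3H. Prph2 was also low in rd1 (29041 to 35541 reads), so its level does not set rd2 apart from rd1.

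The 592 circRNAs carried 104649 of the 214352 junction reads, or 48.8%. Their totals over 12 samples ran from 28 to 2265 reads with a median of 104.5, and the 10 most abundant carried 13.3% of the reads of the set. Of them, 429 had at least 2 reads in every sample, 204 at least 5 and 95 at least 10, while 163 rested on a single read in at least 1 sample. Just inside the rule stood circTbc1d14 with 28 reads in all, circRnf219 with 29 and the single-exon circle of Rnf111 with 30, the last 2 with between 1 and 5 reads in every sample. Just outside it stood circSmad4, with 582 reads in all but none in Pde6b rd1 replicate 3, circPtov1, with 330 reads but none in C3H replicate 1, and circKansl1l (chr1:66772906-66807604), with 219 reads but none in Pde6b rd10 replicate 3. The last was also low in the remaining rd10 samples, at 1 and 3 reads against 15 to 31 in the other 9 samples.

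The most abundant member was the 2-exon circle of Epb41l2, which encodes a membrane-skeleton protein of the 4.1 family. It had 234, 262 and 178 junction reads in C3H, 149, 105 and 115 in rd1, 209, 251 and 262 in rd2, and 194, 141 and 165 in rd10. On the TPM scale, which the authors defined as junction reads per 1000000 junction reads of the library with no term for length, these were 12572 ± 892 (SD, n = 3) in C3H, 10260 ± 386 in rd1, 11934 ± 426 in rd2 and 7813 ± 65.7 in rd10. The rd10 samples were all below every other sample.

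circHipk3, a single-exon circle of a homeodomain-interacting kinase gene that is among the circRNAs most widely described in mammals, followed with 80 to 171 reads per sample. circMettl9, from a histidine methyltransferase gene, had 101 to 172 reads, and its TPM was 10349 ± 1161 in rd1 against 7002 ± 933 in C3H. circPms1, from a DNA mismatch repair gene, had 56 to 179 reads. circAno2, from the gene of a calcium-activated chloride channel found at the photoreceptor synapse, had 45 to 169 reads. The other members among the 12 most abundant were circSnrk, circElf2, 2 circles of Rasa2, circBbs9, circTcf20 and circPwwp2a, and none of the 12 changed by 2-fold or more in any model.

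**Figure D1:**
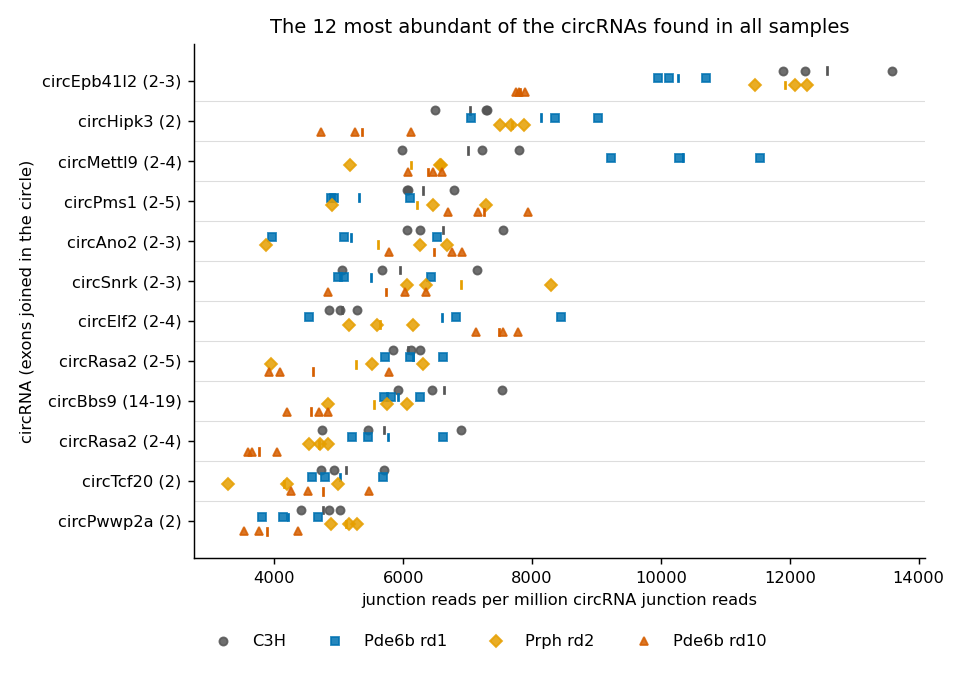
Junction reads per 1000000 circRNA junction reads (x axis) for the 12 circRNAs with the highest median, one row each with the exons in the circle. Points are single samples, coloured and shaped by group, and short vertical lines are group means (n = 3). circEpb41l2 is highest, with group means of 12572 in C3H and 7813 in Pde6b rd10.

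How much the members varied between samples depended on their counts. Among the 247 members with a median of at least 10 reads, the coefficient of variation (CV) of TPM over 12 samples had a median of 31.6%, against 23.7% from Poisson counting error alone. The steadiest were the 3-exon circle of Rims2 (CV 12.8%), whose gene encodes a scaffold of the presynaptic active zone, circKdm4c (12.9%), from a histone demethylase gene, circPwwp2a (13.0%), circSpopl (13.2%) and circZmym4 (14.5%). circRims2 had 54, 94 and 60 reads in C3H, 68, 33 and 45 in rd1, 74, 95 and 81 in rd2, and 123, 76 and 96 in rd10. Its counts followed the depth of the libraries, and it was called in no model. The least steady of the 247 were circTent4a (63.3%), circTbc1d8 (63.3%), circVps45 (61.2%), circDcaf8 (58.6%) and circTtc3 (58.6%).

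The members came from 442 listed host genes, of which 342 hosted 1 member, 100 hosted 2 or more and 13 hosted 4 or more. Bbs9, a subunit of the BBSome that carries cargo into cilia, hosted 6, as did Epb41l2 and Nrxn3, a presynaptic adhesion receptor, while Atxn1 hosted 5. Within the 100 hosts the most abundant member had a median of 2.23 times the reads of the least abundant. In Bbs9 that ratio was 28.6. The exon 14 to 19 circle of Bbs9 had between 56 and 166 reads in a sample, whereas the exon 14 to 18 circle, which shares its start, had between 1 and 9, and the exon 18 to 19 circle, which shares its end, had between 1 and 7. The start at exon 14 thus served 3 members of very different abundance.

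In Atxn1, 4 of the 5 members started at exon 2 and their totals differed widely. The exon 2 to 4 circle had 25 to 100 reads per sample and the exon 2 to 3 circle 1 to 7. All 5 lay partly in the 5′ UTR of this gene. In Nrxn3, the exon 9 to 14 circle had 14 to 36 reads per sample, and the other 5 each had at most 16.

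Of the 592, 580 matched a pair of exon boundaries in 1 annotated transcript, and all 592 had an AG dinucleotide before the acceptor, with a GT donor in 589 and a GC donor in 3. The circles held a median of 3 exons and a median spliced length of 629.5 bases. The shortest was a circle of Birc2, of 128 bases, and the longest a circle of Tcf20, of 5866 bases. A single exon made up 60 of them, and the largest number, 130, had 3 exons. The circle began at exon 2 in 229 members, at 39.5%, and at exon 1 in 1. Coding sequence alone filled 418, and 144 reached into the 5′ UTR. These features were not part of the rule, although they may vary with abundance, which was.

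Members were flanked by longer introns than circRNAs found in 10 samples or fewer, while the median upstream intron was longer still in those of 11 samples. The median upstream and downstream introns were 14806 and 13282 bases for members, 15446 and 11287 for the 302 circRNAs of 11 samples, 8349 and 6722 for those of 2 to 10 samples, and 4547 and 3811 for the 4315 circRNAs found in 1 sample only. A start at exon 2 was found in 39.5%, 35.6%, 25.1% and 18.6% of these classes in the same order. A circBase identifier, which marks a circRNA already catalogued, was carried by 88.9%, 80.5%, 46.4% and 11.4%. Single-exon circles made up 10.3%, 7.80% and 3.20% of the first 3 classes, and were rarest in the last. A run of 20 bases shared in inverted orientation by the 1000 bases on either side of the circle was found in 4.05%, 2.32%, 4.71% and 3.36%, with no order between the classes. The classes are described without a test because the classes were set by junction reads, on which the chance of being catalogued also rests.

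**Figure D2:**
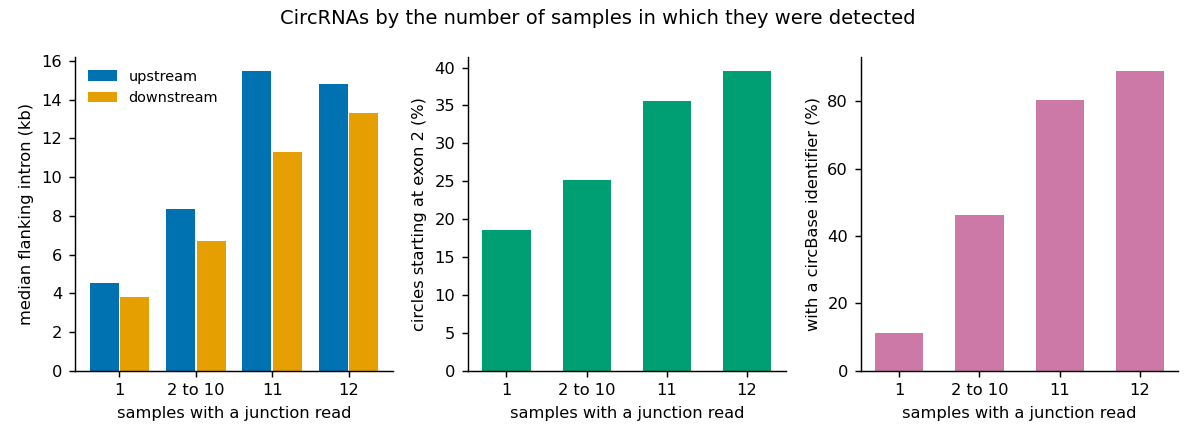
CircRNAs grouped by the number of samples with a junction read (x axis). Bars give the median flanking intron length in kilobases (left), the percentage of circles starting at exon 2 (middle) and the percentage with a circBase identifier (right). The class of 12 samples has 592 circRNAs, and its median introns are about as long as those of the class of 11 samples.

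For 10 members, the exon boundaries belonged to another gene than the host listed in the table. Members listed under Fgfr2 were circles of Fam53b (1) and Zranb1 (3), those under Gm37240 were circles of Fam160a1 (2) and Fbxw7 (1), and those under Eif5b, Ctbs and Gm20388 were circles of Rev1, Spata1 and Tcf25. These members are called by the gene whose exons they match, and the values of the listed host do not describe them.

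Host genes differed widely in their level in whole retina. The median FPKM (fragments per kilobase of transcript, scaled to library size) of the listed host had a median of 14.2 over members, and ran from 0.213 to 690. Across the 588 members with a host row, Pearson's r between log2 median TPM and log2 host FPKM was 0.124 and Spearman's rho 0.116, values that describe genes sharing the same libraries and not independent replicates. The ratio of junction reads to host reads, given per 100 host reads per kilobase of host, had a median of 2.96 with quartiles of 1.42 and 6.29.

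The lowest ratios belonged to 2 circles of Gnb1 (0.0397 and 0.0658), which encodes the transducin beta subunit of the rod cascade and is the host with the highest FPKM of the set. Canx (0.141), Pde6a (0.144), Herc3 (0.193) and Med13 (0.233) came next. The highest ratio was listed for Gm21992 (452), whose circle matched no annotated exon pair of 1 transcript. It was followed by circFam53b and circZranb1, whose ratios of 128 and 91.4 were computed on Fgfr2 and fell to 1.24 and 0.669 on their own genes. circFam160a1, at 84.0, likewise fell to 3.25. circPms1 (124) and circDtnb (67.9) therefore had the highest ratios among circles that matched their host. circPms1 had 56 to 179 reads in a sample beside a host median of 687 reads. The host counts also include reads from the exons of the circle itself, and for a high ratio that part was not measured.

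The summed junction reads of the 592 were compared between groups per 1000000 gene reads. They were 422, 451 and 371 in C3H, 349, 314 and 315 in rd1, 374, 411 and 434 in rd2, and 460, 458 and 492 in rd10. The rd1 samples were all below C3H, by 88.4 on average, and the rd10 samples were all above C3H, by 55.7, whereas rd2 overlapped C3H (difference of -7.72). The exact two-sided permutation p was 0.10 for rd1 and for rd10 and 0.80 for rd2, and 0.10 is the smallest value that 3 samples against 3 can give. With gene libraries rescaled for composition, the differences were -113 in rd1 and 40.0 in rd10, and rd10 then overlapped C3H (exact permutation p = 0.30). All other circRNAs together had 291 reads per 1000000 gene reads in rd1, 425 in C3H, 433 in rd2 and 537 in rd10 on average. As a share of all junction reads the members were highest in rd1 (50.9 to 54.5%) and lowest in rd10 (45.5 to 47.4%). The rule used these same counts, and a circRNA missing from any 1 library is among the others. The sums and the order of the shares are therefore given as a description and not as a trait of the members.

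**Figure D3:**
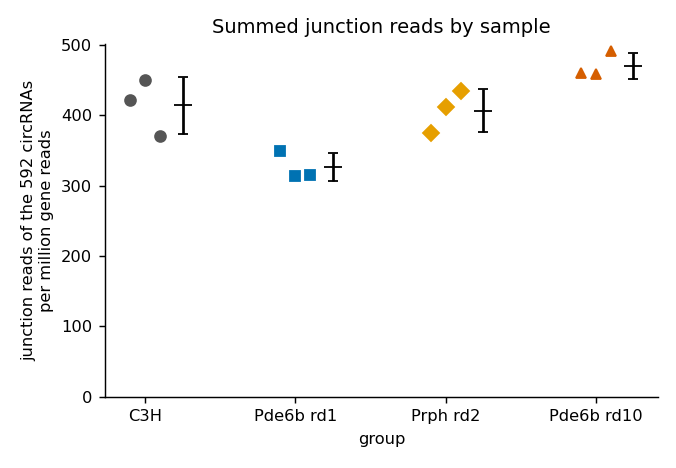
Junction reads of the 592 circRNAs per 1000000 gene reads (y axis, from 0) in each sample by group. Points are samples, and the bar beside them gives mean ± SD (n = 3). The rd1 samples lie at 314 to 349 and the rd10 samples at 458 to 492, on either side of C3H.

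For the comparison of single members, junction counts were scaled by the junction libraries, tested with edgeR's quasi-likelihood test on all circRNAs with at least 2 reads in 3 samples of the fit, and called at p under 0.05 with at least a 2-fold change. These p-values are not adjusted unless said so. Scaling by gene libraries instead lowered the median circRNA by 0.34 on the log2 scale in rd1 (shift of -0.34) and raised it by 0.17 in rd10 (shift of 0.17), with shifts of -0.11 in rd2 and 0.40 in rd10 against rd1. Changes below are thus relative to the junction pool.

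In Pde6b rd1, 5 of the 588 tested members were higher than C3H (all 1791 tested circRNAs: 1.12% called) and 17 were lower (5.25% called). With gene scaling the split was 2 higher and 57 lower, with DESeq2 4 and 5, and with limma on TPM 9 and 5. Without C3H replicate 2 it was 10 higher and 9 lower. No member passed an adjusted p of 0.05 by edgeR, while 47 had an unadjusted p under 0.05. Of the 588, 523 lay within 2-fold, as did 71.3% of all tested circRNAs. A falling member had to keep at least 1 read in each rd1 library to be counted, and the shares of members are not read against those of all circRNAs.

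Among the lower members in rd1, circRpgrip1, from the gene of a connecting-cilium protein that anchors RPGR, had 26, 31 and 28 reads in C3H and 11, 5 and 10 in rd1, a log2 fold change of -1.33 ± 0.33 (SE; edgeR quasi-likelihood test, adjusted p = 0.155). It had 15, 21 and 22 reads in rd2 and 44, 25 and 24 in rd10. The rd1 samples were all below C3H, also per junction read.

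circTmem26, from a transmembrane protein gene, was among those with the smallest adjusted p in rd1, at 0.155, with 26, 52 and 39 reads in C3H and 17, 11 and 10 in rd1 (log2 fold change -1.23 ± 0.29). Its host did not follow (0.10). circNtrk3, from the gene of the neurotrophin-3 receptor, had 7, 8 and 7 in C3H and 2, 1 and 1 in rd1, and circAtrnl1 had 12, 17 and 5 against 3, 2 and 3.

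The 5 higher members in rd1 were all single-exon circles. circNlgn1, from the gene of the postsynaptic adhesion protein neuroligin 1, had 8, 9 and 3 reads in C3H and 9, 17 and 21 in rd1 (log2 fold change 1.66 ± 0.47, adjusted p = 0.319). circEpha5, from an ephrin receptor gene, had 4, 7 and 1 in C3H and 11, 11 and 8 in rd1. circTut4, circSipa1l1 and circTmem132d were the others, and none of these kept its call with gene scaling. For circEpha5 the host gene also had a positive log2 fold change, of 0.41.

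In Pde6b rd10, 20 of 591 tested members were higher (all 2339 tested circRNAs: 6.71% called) and 30 were lower (5.13% called). Of the 591, 516 lay within 2-fold, as did 66.5% of all tested circRNAs. With gene scaling the split was 32 higher and 21 lower. At an adjusted p under 0.05 with a 2-fold change, 5 were higher and 11 lower, which makes rd10 the one model with members past that threshold.

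circNcoa2 had the largest difference. This 3-exon circle of the gene of nuclear receptor coactivator 2 had 71, 63 and 49 reads in rd10, against 4, 6 and 4 in C3H, 3, 5 and 1 in rd1 and 10, 3 and 6 in rd2. Its log2 fold change against C3H was 3.46 ± 0.30 with an adjusted p of 1.04e-07. Linear Ncoa2 fell by 0.31 on the log2 scale (adjusted p = 1.68e-07), from 7029 to 8409 reads in C3H to 5460 to 7315 in rd10. The 3 rd10 samples stood apart from the other 9 samples of every age.

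Other members were higher in rd10 by smaller amounts. circZfyve9, from the gene of the SMAD anchor SARA, had 53, 35 and 35 reads in rd10 and 13, 17 and 14 in C3H (1.24 ± 0.25 on the log2 scale, adjusted p = 0.00511). The exon 2 to 5 circle of Elf2, an ETS-family factor, had 51, 42 and 62 against 23, 25 and 13 (1.13 ± 0.23, adjusted p = 0.00622), and the more abundant exon 2 to 4 circle rose by less, 0.60 ± 0.13. circTrpc6, from a cation channel gene, had 26, 22 and 23 against 7, 9 and 5 (1.53 ± 0.34, adjusted p = 0.0111). The exon 16 to 19 circle of Arhgap10 had 18, 20 and 19 against 5, 5 and 6 (adjusted p = 0.0291).

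Among the falling members, circSetd3, from the gene of the actin histidine methyltransferase, had 18, 15 and 9 reads in rd10 and 41, 61 and 36 in C3H (log2 fold change -1.92 ± 0.25, adjusted p = 4.96e-05). It had 33 to 37 reads in rd1 and 34 to 57 in rd2. Linear Setd3 did not pass the fold threshold (log2 fold change -0.06, adjusted p = 0.241).

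circVps45, from a vesicle-fusion regulator gene, had 1, 2 and 2 reads in rd10 and 20, 14 and 7 in C3H (log2 fold change -3.14 ± 0.63, adjusted p = 0.00474). It had 7 to 20 reads in each of the other 9 samples, and its low counts in rd10 brought it close to leaving the set. circTbc1d8, from a Rab GTPase-activating protein gene, had 4, 3 and 5 against 18, 24 and 29 (-2.77 ± 0.42, adjusted p = 0.000281). circStau2, from the gene of a double-stranded RNA-binding protein of neuronal RNA transport, had 28, 16 and 24 against 57, 55 and 36 (-1.34 ± 0.22, adjusted p = 0.000758).

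The exon 2 to 15 circle of Ezh2, the histone H3 lysine methyltransferase of Polycomb complex PRC2, had 16, 11 and 16 reads in rd10 and 39, 35 and 23 in C3H (-1.39 ± 0.27, adjusted p = 0.00434). circTmem26 had 21, 6 and 14 against 26, 52 and 39 (-1.74 ± 0.30, adjusted p = 0.00156), and here the host fell as well, by 1.67 on the log2 scale. circTmem26 was the only member called against C3H in both rd1 and rd10. The 11 also included circGab1, from an adaptor gene of receptor tyrosine kinases, and circLdha.

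**Figure D4:**
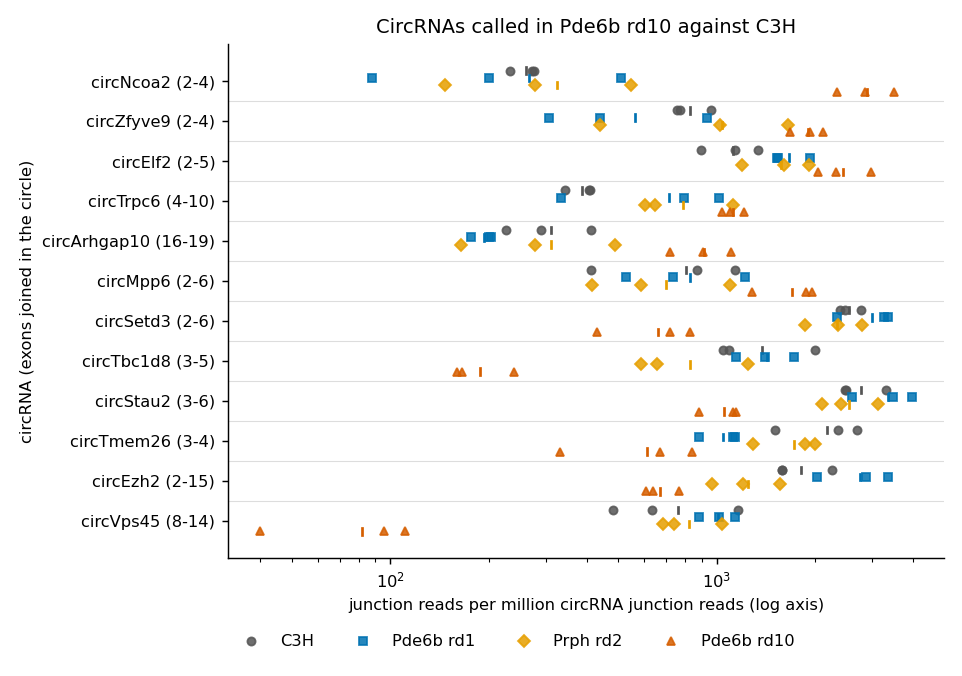
Junction reads per 1000000 circRNA junction reads (x axis, log scale) for the 6 higher and 6 lower members with the smallest p in Pde6b rd10 against C3H. Points are samples by group and short vertical lines are group means (n = 3). circNcoa2 lies at 2888 on average in rd10 and at 260 to 324 in the other groups.

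In Prph rd2, 8 of 591 tested members were higher (all 2207 tested circRNAs: 1.99% called) and 4 were lower (1.36% called). With gene scaling the split was 4 higher and 7 lower. It also turned when 1 library was left out, to 4 higher and 15 lower without rd2 replicate 3 and to 3 and 4 without rd2 replicate 2. None passed the adjusted threshold by edgeR, 30 had an unadjusted p under 0.05, and the smallest adjusted p was 0.892. That value belonged to circLdha, from the gene of lactate dehydrogenase A, which had 9, 11 and 13 reads in rd2 and 20, 25 and 21 in C3H (-1.09 ± 0.33), and it was also lower in rd10 (13, 12 and 9). circTrpc6 was higher in rd2 (11, 23 and 14) as in rd10.

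circKat6b had 5, 14 and 12 reads against 3, 4 and 2, and circTox 12, 13 and 14 against 6, 4 and 5. circGabbr1, from the gene of a GABA-B receptor subunit, had 10, 12 and 11 against 4, 4 and 4. circGab1 (4, 3 and 5 against 8, 10 and 10) and circAtxn2 were lower. All 3 models were compared with the same C3H samples, so a member that was unusual in C3H appears in more than 1 comparison, and 516 members were called in no model.

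In the direct contrast, rd10 against rd1, 52 of 592 members were higher in rd10 (all 3630 tested circRNAs: 9.72% called) and 37 were lower (4.41% called). With gene scaling the split was 113 higher and 18 lower, with DESeq2 34 and 42, and with limma on TPM 13 and 34. Of the 592, 27 higher and 18 lower passed an adjusted p of 0.05 with a 2-fold change. circNcoa2 (3.77 ± 0.43), circZfyve9 (1.96 ± 0.37) and the exon 14 to 18 circle of Arhgap10 (1.27 ± 0.25) were among those higher in rd10. circSetd3 (-1.85 ± 0.28), circEzh2 (-1.72 ± 0.30) and circTbc1d8 (-2.58 ± 0.46) led those lower.

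The linear output of the 439 host genes with a row was tested on gene counts, at p under 0.05 with at least a 1.5-fold change. In rd1, 2 hosts were higher (all 18310 tested genes: 8.98% called) and 5 were lower (6.03% called). In rd10, 9 were higher (15.9% of 18704 genes called) and 19 lower (8.08% called). In rd2, 1 was higher (2.68% of 18581 genes called) and 1 lower (1.89% called). Of the hosts, 99.3% lay within 2-fold of C3H in rd1, 99.1% in rd10 and all 439 in rd2. Over all tested genes the shares were 93.0% in rd1, 86.9% in rd10 and 98.7% in rd2.

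Hosts that fell in rd1 included Stk35 (log2 fold change -1.71), Pde6a (-1.22), the alpha subunit of rod phosphodiesterase, Rabgef1 (-1.10) and Gnb1 (-0.70). Their circles were not called. Stk35 had 10071 to 12520 reads in C3H and 2882 to 3616 in rd1, whereas circStk35 had a log2 fold change of -0.68 ± 0.31. Gnb1 circles had log2 fold changes of -0.13 and 0.18 in rd1. circPde6a had -1.09, close to the change of its host, but it had only 95 reads over the 12 samples. In rd10, Agtpbp1, the deglutamylase that is mutated in Purkinje cell degeneration mice, rose from 5458 to 6807 reads in C3H to 13431 to 18093 (log2 fold change 1.32). Of its 3 members, the exon 2 to 11 circle was called higher (1.13 ± 0.46).

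No called member in rd1 or rd2 had a called host, and in rd10 9 of 50 had one. Of the 592 members, called or not, 9 in rd1, 46 in rd10 and 2 in rd2 had a called host. In rd1 and rd2 there was thus little room for a shared call. All members whose hosts had enough reads were also tested relative to the host, with host reads, scaled to library size, as an offset. In rd1, 5 members were higher (0.956% of 1779 circRNAs called) and 22 lower (5.45% called) relative to host. In rd10, 22 were higher (6.59% of 2323 called) and 24 lower (4.22% called). In rd2, 5 were higher (1.73% of 2193 called) and 6 lower (1.41% called). Of the members called on junction counts, 18 of 22 in rd1, 34 of 50 in rd10 and 8 of 12 in rd2 were also called relative to host in the same direction. Both tests used the same junction counts, so this overlap is not separate evidence of a change.

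Relative to host, circNcoa2 rose in rd10 by 3.77 on the log2 scale (adjusted p = 8.54e-09), circSetd3 had -1.86 (adjusted p = 8.58e-05) and circStau2 -1.03 (adjusted p = 0.00931). circTmem26 had -0.09 in rd10, where its host fell too, and -1.33 in rd1 (adjusted p = 0.0751), where it did not. circSorbs2 (-1.42) and circIgsf11 (-1.20) were also lower relative to host in rd1. In rd2, circTox (1.35) and circKat6b (1.64) were higher and circTtll5 (-1.05) and circKlhl8 (-1.12) lower. The log2 fold change of -3.41 listed for circFam53b in rd10 rests on Fgfr2, which is not its gene.

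**Figure D5:**
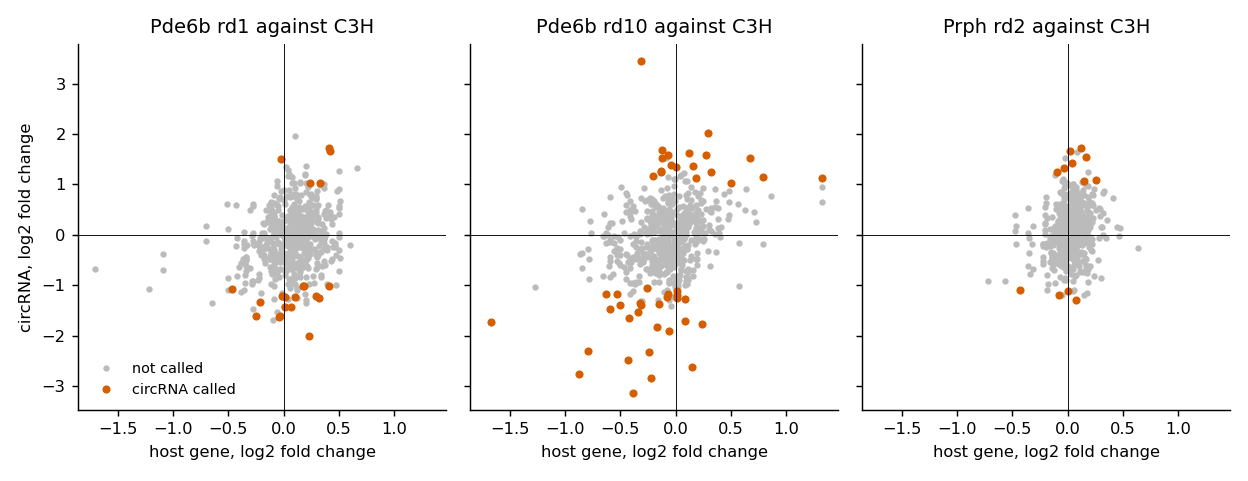
Log2 fold change of each member (y axis) against that of its host gene (x axis) in each model against C3H, without the members whose exons belong to another gene. Orange points are called members. The hosts lie within 2-fold of C3H for 99.3% in rd1 and 99.1% in rd10 (all tested genes: 93.0% and 86.9%). circNcoa2 in rd10 lies at 3.46 with its host at -0.31.

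By function, the phototransduction list gave 3 members. Of 45 genes, 26 hosted a circRNA in the table, and Gnb1 and Pde6a hosted the members. Of all 3933 host genes in the table, 442 hosted a member. None was called in a model, with median log2 fold changes of -0.13 in rd1, 0.41 in rd10 and 0.12 in rd2. At the linear level, 27 of the 43 tested genes of this list were lower in rd1 (all tested genes: 6.03% called). In rd10, 6 were higher (15.9% called) and 10 lower (8.08% called), and in rd2 5 were lower (1.89% called). None of the 16 photoreceptor transcription factor genes hosted a member, and 9 hosted some circRNA.

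The cilium list was richer, with 19 members from 11 of 51 genes. In rd1, 3 of its 19 members were lower and none higher, where 5.25% of all tested circRNAs were lower and 1.12% higher. The 19 had a median log2 fold change of -0.37, beside -0.09 over all members and -0.18 over all tested circRNAs. The list of ubiquitin genes had a lower median in rd1, of -0.44 over 17 members. A low median was thus not particular to the cilium list. In rd10 and rd2 no cilium member was called, and the medians of the cilium list were -0.11 and -0.19. The synaptic release list held 11 members from 5 genes (Rims2, Sv2b, Dnm3, Itsn2 and Nbea), and none was called against C3H. The postsynaptic and adhesion list held 18 members, of which 2 were higher in rd1, and 1 was higher and 1 lower in rd10.

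Chromatin and transcription genes gave the most members, 74 from 45 of 183 genes. In rd10, 4 of them were higher and 6 lower, in rd1 1 was lower, and in rd2 2 were higher. Over all tested circRNAs, 6.71% were higher and 5.13% lower in rd10, 5.25% lower in rd1 and 1.99% higher in rd2, and these shares are the background of every list count given here. Cytoskeleton and trafficking genes gave 45 members (3 higher and 1 lower in rd10, 1 lower in rd1), kinases and phosphatases 30 (1 higher and 1 lower in rd10, 2 lower in rd1), receptors and ion channels 19 (2 higher in rd10 and 2 in rd2), RNA-binding and splicing genes 17 (1 lower in rd10) and ubiquitin genes 17, none of them called against C3H. In rd10 against rd1, 4 of the 17 ubiquitin members were higher (9.72% of all tested circRNAs called). Of 46 hosts widely described in other studies, 19 hosted 30 members. Of these 30, 2 were lower in rd1, and in rd10 2 were higher and 1 lower. circSlc8a1, from the sodium-calcium exchanger gene, had 24 to 70 reads per sample and circRtn4 22 to 50, and neither was called against C3H.

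Of the genes that make or clear circRNAs, 29 were tested at the linear level, where a call needed a 1.5-fold change. Adarb1 and Esrp1 were lower in rd1, and Esrp1 was lower in rd10. Adarb1, an editing enzyme of double-stranded RNA, had a log2 fold change of -0.60 in rd1 and 0.49 in rd10. Adar had -0.32 in rd1 and 0.44 in rd10. Esrp1, an epithelial splicing factor, had 20 to 115 reads per sample and a log2 fold change of -1.19 in rd1 and -1.39 in rd10. The part of these genes in the circRNA levels was not tested.

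The levels of cell type markers differed between the groups. The summed FPKM of 10 rod markers was 5717 to 5925 in C3H, 3005 to 3069 in rd1, 3822 to 4096 in rd2 and 4882 to 5152 in rd10. That of 10 microglial markers was 45.5 to 47.5 in C3H and 128 to 144 in rd10, where 9 of the 10 were higher. Summed markers of lens (1.75 to 5.37) were near 0 in every sample. Members were hosted by 1 of the rod markers and 1 of the bipolar markers and by no marker of the other cell types. The part of these marker levels in the differences of the members was not tested.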

How the data were processed

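Total RNA of whole mouse retinas was depleted of ribosomal RNA and sequenced as directional libraries, 12 in all. The authors aligned reads to GRCm38 with HISAT2, counted genes with HTSeq 0.11.2 and deposited raw gene counts and FPKM. For circRNAs the authors used TopHat2 2.1.1 and CIRCexplorer on mm10 and deposited back-splice junction counts and TPM, which is the count scaled to the junction reads of the library. The methods state that candidates with under 2 junction reads were discarded, but the table holds counts of 1 in single samples.

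The members and the gene lists were chosen with earlier results of these data known. Deposited counts were tested with edgeR 4.0.16 (quasi-likelihood, TMM scaling) in R 4.3.3, each model against C3H, after dropping circRNAs that did not reach 2 junction reads in 3 samples of the fit. All circRNAs were tested together, with Benjamini-Hochberg adjustment over all of them. Calls needed p under 0.05 with a 2-fold change, or 1.5-fold for genes, after the thresholds of the study. Pde6b rd10 was compared with Pde6b rd1 in a fit of all 12 samples. Tests relative to host used the junction library and host reads, scaled to library size, as an offset, for hosts with at least 10 reads in every sample. Summed reads were compared by exact two-sided permutation tests. The fits were tested on simulated data. DESeq2 1.42.0, limma 3.58.1, other scalings and filters, a replicate block and leaving out each sample were the alternatives.

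CircRNAs named in the text were the 12 with the highest median TPM, up to 6 called members per comparison and direction with the smallest p and groups that did not overlap (4 relative to host), the 5 steadiest and 5 least steady, the 6 highest and 6 lowest ratios to host, all members of the hosts with most members, up to 8 of selected gene lists, and those nearest to the limit of the rule. Junction sequences were read from RefSeq GRCm38.p6. The paper calls the samples of a group biological replicates but does not say how many animals each came from. P-values measure the spread between these samples. For C3H that spread includes age, because its samples differ in age, whereas the samples of each model share an age. Some named genes and their circles are not reported here. On gene counts, every pair of replicates differed by more than sampling noise. On the junction counts of the members alone, Pde6b rd1 replicates 2 and 3 agreed within it (chi-square per degree of freedom 1.03, against 3.50 for genes), and they were kept as separate samples. Junction reads carry no molecular identifiers, and 1 read was worth 40.0 to 102 TPM.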

Additional observations from a re-analysis of the deposited data

Results flagged for a closer look

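The effects of Pde6b rd1 and Pde6b rd10 against the same C3H samples differed for 23 of the circRNAs described, by the direct contrast of rd10 with rd1 in the 12-sample fit (edgeR, adjusted p under 0.05 and at least 2-fold). Part of the circRNAs described were named for a small p in this same contrast. The count of 23 is therefore a listing and not a result about the members. At an adjusted p under 0.05 and any fold, 121 of all 3630 tested circRNAs and 53 of the 592 members passed. The values below are log2 differences, rd10 minus rd1, and genotype, age and strain cannot be told apart in them.

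Higher in rd10 than in rd1 were circNcoa2 (3.77), the exon 16 to 19 and 14 to 18 circles of Arhgap10 (2.47 and 1.27), circAtrnl1 (2.19), circDcaf8 (2.08) and circZfyve9 (1.96). circKcnh5 (1.69), circFam160a1 (1.39), circZzz3 (1.36), circMpp6 (1.35), circRpgrip1 (1.29) and the exon 2 to 5 circle of Atxn1 (1.01) were also higher.

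Lower in rd10 than in rd1 were circVps45 (-3.29), circNlgn1 (-2.90), circTbc1d8 (-2.58), circEpha5 (-2.40), circTent4a (-1.90) and circSetd3 (-1.85). circEzh2 (-1.72), circTtc3 (-1.53), circStau2 (-1.33), circRtn4 (-1.09) and the exon 9 to 14 circle of Nrxn3 (-1.02) were lower by less.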

How the results depend on the processing

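With an adjusted p under 0.05 as the threshold, members called fell to 0 in rd1, 16 in rd10, 0 in rd2 and 45 in rd10 against rd1, and relative to host to 0, 9 and 0. DESeq2 called 9, 33 and 2 members in the 3 models. limma on log2(TPM + 1) called 14 in rd1, 5 in rd2 and 47 in rd10 against rd1. Scaling by gene libraries gave 59 calls in rd1. Leaving out 1 sample at a time gave 19 to 29 members in rd1, 47 to 56 in rd10, 7 to 21 in rd2 and 70 to 84 in rd10 against rd1. For hosts this gave 6 to 8, 27 to 29 and 1 to 3, and relative to host 18 to 30, 36 to 50 and 8 to 17. In rd2, 21 members were called without C3H replicate 1, 7 without rd2 replicate 2 and 19 without rd2 replicate 3, and 17 relative to host without rd2 replicate 1. The difference in summed reads ranged from -110 to -70.4 in rd1, 33.8 to 73.8 in rd10 and -29.6 to 10.3 in rd2, and in rd2 it turned positive without rd2 replicate 1 (8.49) or C3H replicate 2 (10.3).

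On circRNA counts, same-numbered samples did not deviate together from their group means (Pearson's r of -0.042 to 0.032 over all comparisons). On gene counts they did so weakly in rd1 against C3H, with r of 0.061 to 0.133. Samples of different number had -0.081 to 0.027 there. In the other comparisons, same-numbered samples had gene values of -0.063 to 0.113. In C3H the number also goes with age. The numbers were not taken to pair the samples. With the replicate number as a block, 17, 41 and 10 members were called in rd1, rd10 and rd2, and 83 in rd10 against rd1. Chosen after seeing the data, leaving out the 10 members whose exons belong to another gene gave 26, 42 and 11 calls relative to host. Over the calls of named members and all settings, 1050 repeats kept the call, 322 lost it and none reversed its direction. The causes were not tested.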
